A study of Mus musculus with 6 samples.

Results

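NRF2, encoded by Nfe2l2, is the transcription factor that switches on genes for glutathione synthesis, NADPH supply and the repair of oxidised proteins, and KEAP1 is the adaptor that hands NRF2 to degradation. The genes described here are this pair and 8 NRF2 targets: Nqo1, Hmox1, Gclc, Gclm, Srxn1, Slc7a11, Gsr and G6pdx. They were chosen by name, as the rows of the deposited gene table whose symbol is one of these 10, and all 10 were found among its 50385 genes, each with 1 row. After a filter on low counts 9 were tested among 20472 genes. Slc7a11 was listed at 0 in all 6 libraries and was not tested.

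RNA was measured in hearts of male Mdx/Utrn dKO mice, which lack dystrophin and its relative utrophin and serve as a model of Duchenne muscular dystrophy with a failing heart. In the treated group, 3 libraries come from mice given setanaxib, a Nox4 inhibitor, by oral gavage each day for 12 weeks at 60 mg/kg. The 3 libraries set against them come from mice of the same genotype given corn oil, the vehicle, over the same time. Mice of both groups were 2 to 3 months old when dosing began. Both groups are labelled Mdx/Utrn dKO and so carry both mutations, and no heart of a healthy mouse is in the series. The labels number the samples without saying in words that each is 1 animal, and p-values measure only the spread between these libraries.

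Nox4 makes hydrogen peroxide from NADPH. Peroxide and other electrophiles modify cysteines of KEAP1, which frees NRF2 to enter the nucleus and bind antioxidant response elements together with small MAF proteins. The targets described here form a chain: the cystine carrier imports the building block of glutathione, glutamate-cysteine ligase joins it to glutamate, glutathione reductase restores the oxidised product with NADPH, and glucose-6-phosphate dehydrogenase makes that NADPH. In heart muscle this system answers oxidative stress, and in dystrophic muscle oxidative stress is a known part of the disease.

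Levels are given in CPM, the deposited estimates brought to a common library size by the trimmed mean of M values (TMM). Totals ran from 110803307 to 154003318 estimated counts per library, so every tested member rests on at least 794 estimated counts in each library and the spread between libraries sets the precision. The heart muscle markers Myh6, Tnnt2, Tnni3, Actc1, Ryr2, Pln, Myl2 and Mybpc3 summed to between 32818 and 46434 CPM in every library. Of these 8, 4 were higher and 4 lower with setanaxib in log2 fold change. For 2 of them, Mybpc3 and Actc1, all setanaxib libraries lay below all vehicle libraries, as for 9.46% of all genes tested. None of the 8 was called by edgeR or DESeq2. Setanaxib replicate 3 stood apart: its lung epithelium markers summed to 777 CPM, its adipocyte markers to 124 CPM and its atrial markers to 3129 CPM, against at most 24.4, 4.19 and 589 CPM in any other library. Its heart muscle sum of 32818 CPM was the lowest. Of 16 macrophage markers, 14 had a negative log2 fold change (setanaxib minus vehicle) with groups that did not overlap, where 9.46% of all genes tested lay lower in this way. Their sums were 259 to 315 CPM with setanaxib and 397 to 508 CPM with vehicle, and Fcgr1 was listed at 0 in setanaxib replicate 1. Of the 16, edgeR called none and DESeq2 called 7, where DESeq2 called 2.43% of all genes. All 8 fibroblast markers had negative log2 fold changes, 5 of them without overlap (9.46% of all genes). Their sums were 628 to 1055 CPM with setanaxib and 1038 to 1365 CPM with vehicle, and edgeR called 0 and DESeq2 3 of them (2.43% of all genes by DESeq2). All 8 smooth muscle and pericyte markers had negative log2 fold changes as well, 4 of them without overlap (again 9.46% of all genes). Their sums were 565 to 832 CPM with setanaxib and 772 to 930 CPM with vehicle, and edgeR called 0 and DESeq2 1 of them (2.43% of all genes by DESeq2). In such bulk samples fewer cells of a type and less RNA per cell cannot be told apart.

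None of the 9 tested members differed between setanaxib and vehicle hearts past the threshold, an adjusted p under 0.05 in edgeR's quasi-likelihood test with Benjamini-Hochberg adjustment over all genes. That threshold was passed by 1 of the 20472 genes, or 0.00488%, and DESeq2 and limma-voom called none of the 9 either, where DESeq2 called 2.43% of all genes. Gclc alone had an unadjusted p under 0.05, as did 8.46% of all genes. Of the 9 members, 5 had a positive log2 fold change and 4 a negative one, with a median of 0.05, and the median over all genes tested was 0.01. The members, like most genes, varied more among the 3 setanaxib libraries than among the vehicle libraries. The coefficient of variation (SD as percent of mean) was larger with setanaxib for 8 of 9 members and for 75.2% of all genes. Its median over the members was 30.2% with setanaxib and 5.33% with vehicle. Over all genes tested the medians were 22.0% with setanaxib and 11.7% with vehicle. Setanaxib replicate 3, the library with lung, fat and atrial markers, was lowest for 5 of the 9 members and highest for 1. The part of that library's tissue makeup in this spread was not tested.

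**Figure D1:**
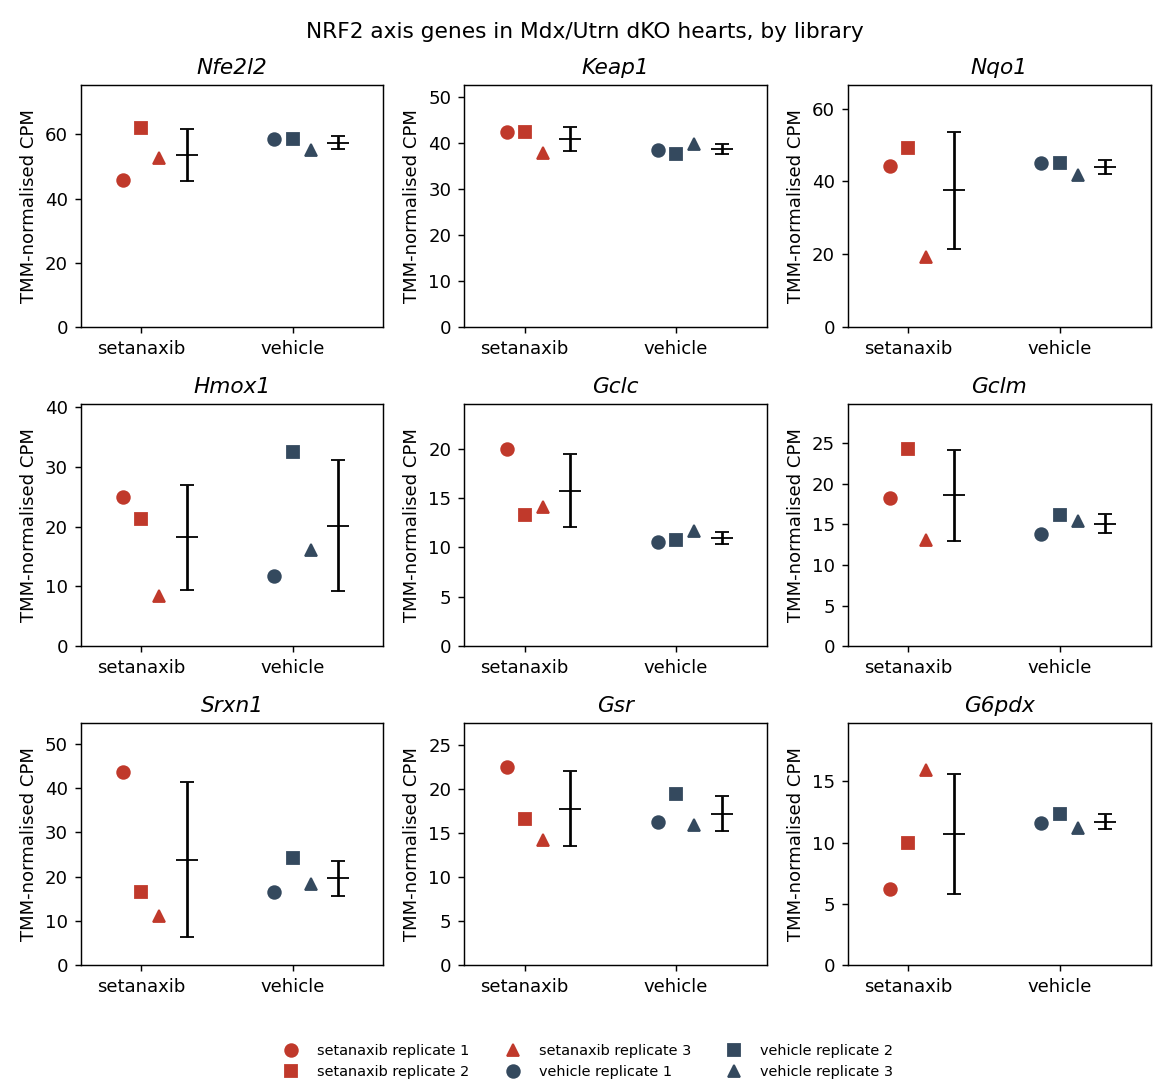
Level of each tested member in TMM-normalised CPM (vertical axis, from 0) in setanaxib and vehicle hearts; each symbol is 1 library and the black bar is the mean with its SD (n = 3 per group). The vehicle symbols lie close together except for Hmox1 and, less so, Srxn1; 1 setanaxib library stands apart for Nqo1 (low) and for Srxn1 (high), G6pdx has setanaxib libraries on both sides of the vehicle values, and Gclc is the only panel without overlap.

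The regulators were nearly level. Nfe2l2 (ENSMUSG00000015839) was at 45.8, 61.9 and 52.6 CPM in setanaxib replicates 1 to 3 and at 58.5, 58.6 and 55.0 CPM in vehicle replicates 1 to 3. Setanaxib replicate 1 was the lowest library and setanaxib replicate 2 the highest, so the vehicle values fell inside the setanaxib range. The log2 fold change was -0.10 (SE 0.12, 95% interval -0.40 to 0.20, edgeR adjusted p = 0.884). Keap1 (ENSMUSG00000003308) was at 42.4, 42.5 and 37.9 CPM with setanaxib and at 38.5, 37.7 and 39.8 CPM with vehicle. It varied least of all members, by 1.13-fold from the lowest to the highest library, and its log2 fold change was 0.08 (SE 0.08, 95% interval -0.12 to 0.29, edgeR adjusted p = 0.858). The count ratio of Nfe2l2 to Keap1 within a library, which needs no scaling, was 1.08, 1.46 and 1.39 with setanaxib and 1.52, 1.55 and 1.38 with vehicle. NRF2 is controlled mainly through the stability of the protein, which these transcripts do not report.

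Per kilobase of merged exons, Nqo1 had the highest mean level over the 6 libraries, at 26.3 CPM per kb, followed by Nfe2l2 at 14.6, Hmox1 at 10.97, Keap1 at 8.48, Srxn1 at 7.70, Gsr at 6.34, G6pdx at 3.64, Gclc at 3.55 and Gclm at 2.68 CPM per kb. Each gene's range over the libraries overlapped that of its neighbour in this order, so only wider steps of the order stand outside the spread between libraries. Nfe2l2, for example, spanned 12.1 to 16.3 CPM per kb and lay above Keap1, at 8.03 to 9.06 CPM per kb, in every library.

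Antioxidant response elements carry the core TGACNNNGC, where N is any base, and a related form TGAGNNNGC. RefSeq promoter sequences on GRCm38.p6 were at hand for 7 of the 10 members (Nfe2l2, Keap1, Nqo1, Gclm, Srxn1, Slc7a11 and G6pdx), and the 250 bases before the annotated start were searched on both strands. TGACNNNGC occurred in 3 of the 7, namely Nfe2l2, Gclm and G6pdx, and in 10.2% of 32851 promoters of that length. TGAGNNNGC occurred in 2 of the 7, Srxn1 and Slc7a11, and in 14.4% of all promoters. Keap1 and Nqo1 had no match of either form in these 250 bases. Bases farther from the start were not searched, so this does not show that a gene lacks such an element. The promoters of Gclm (chr3:122245307-122245556, plus strand), Srxn1 (chr2:152105274-152105523, plus strand) and G6pdx (chrX:74428881-74429130, minus strand) are shown because these 3 targets went separate ways among the setanaxib libraries. They are written 5′ to 3′ on the gene's strand, with every match of either form in capitals:
Gclm: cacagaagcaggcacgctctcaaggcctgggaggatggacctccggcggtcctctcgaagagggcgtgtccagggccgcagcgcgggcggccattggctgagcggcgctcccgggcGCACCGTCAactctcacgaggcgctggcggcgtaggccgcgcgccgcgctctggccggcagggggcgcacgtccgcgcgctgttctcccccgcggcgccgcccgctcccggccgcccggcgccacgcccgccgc
Srxn1: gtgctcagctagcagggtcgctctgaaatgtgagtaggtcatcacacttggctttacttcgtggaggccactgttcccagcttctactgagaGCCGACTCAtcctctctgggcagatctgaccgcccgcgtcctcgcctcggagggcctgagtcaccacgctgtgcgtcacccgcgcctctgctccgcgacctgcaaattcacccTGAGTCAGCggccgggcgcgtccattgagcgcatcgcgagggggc
G6pdx: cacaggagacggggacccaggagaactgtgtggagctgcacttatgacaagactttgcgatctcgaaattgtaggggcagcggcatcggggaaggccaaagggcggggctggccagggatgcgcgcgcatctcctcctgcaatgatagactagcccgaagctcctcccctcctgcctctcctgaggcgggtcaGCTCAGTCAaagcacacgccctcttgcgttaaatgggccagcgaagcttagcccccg
Distances are given for the base of a match that lies farthest from the start. Gclm has 1 match, TGACGGTGC read on the opposite strand, which reaches from 134 bases before the start. Srxn1 has 2 matches of the related form, TGAGTCGGC on the opposite strand from 158 bases before the start and TGAGTCAGC on the gene's strand from 45 bases before it. G6pdx has TGACTGAGC on the opposite strand from 57 bases before its start. These are letter matches and were not tested as binding sites.

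Glutamate-cysteine ligase, the rate-limiting enzyme of glutathione synthesis, has a catalytic subunit, Gclc, and a modifier subunit, Gclm, and both had positive fold changes. Gclc (ENSMUSG00000032350) was at 20.0, 13.2 and 14.1 CPM with setanaxib and at 10.5, 10.7 and 11.6 CPM with vehicle. All 3 setanaxib libraries lay above all 3 vehicle libraries, with setanaxib replicate 1 the highest. Groups that do not overlap, with setanaxib higher, were found for 8.11% of all genes tested (9.46% had setanaxib lower and 17.6% either), and Gclc was the only such member. The means were 15.8 ± 3.67 CPM with setanaxib and 10.97 ± 0.585 CPM with vehicle (SD, n = 3 each), with a log2 fold change of 0.52 (SE 0.18, 95% interval 0.09 to 0.95). Its unadjusted p was 0.0241 by edgeR's quasi-likelihood test, and its adjusted p of 0.508 missed the threshold. Without setanaxib replicate 1 the log2 fold change was 0.31 (SE 0.10), and without vehicle replicate 1 or 2 the unadjusted edgeR p was 0.0774 or 0.0682.

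Gclm (ENSMUSG00000028124) was at 18.3, 24.3 and 13.1 CPM with setanaxib and at 13.8, 16.1 and 15.4 CPM with vehicle. Setanaxib replicate 2 was the highest library and setanaxib replicate 3 the lowest, so the groups overlapped (log2 fold change 0.30, SE 0.23, edgeR adjusted p = 0.789). Without setanaxib replicate 3, the library with lung, fat and atrial markers, both remaining setanaxib libraries lay above all vehicle libraries and the log2 fold change was 0.50 (SE 0.15, unadjusted p = 0.0191, edgeR adjusted p = 0.295). Without setanaxib replicate 2 it was 0.05 (SE 0.18). The subunits were not highest in the same library: the count ratio of Gclc to Gclm was 1.09, 0.545 and 1.07 in setanaxib replicates 1 to 3 and 0.765, 0.665 and 0.756 in the vehicle replicates. The vehicle ratios thus stayed within a narrow band and the setanaxib ratios lay on both sides of it.

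Around this step, Slc7a11 (ENSMUSG00000027737), the cystine carrier xCT, was listed at 0 in every library of both groups. If such a 0 is taken as a count, 3 counts would correspond to between 0.0205 and 0.0247 CPM. The table holds estimates, however, and in 8 cases a single library is listed at 0 for a gene with at least 500 estimated counts in the other 5, so a 0 is not taken to show absence of the transcript. In the reference Slc7a11 overlaps 5 other genes, and none of them was tested either. Slc3a2, the heavy chain that xCT shares with other amino acid carriers, averaged 31.6 ± 8.77 CPM with setanaxib and 26.0 ± 2.01 CPM with vehicle (SD, n = 3 each). Gss, glutathione synthetase, which adds glycine to complete the molecule, averaged 10.6 ± 0.536 CPM with setanaxib and 9.92 ± 0.864 CPM with vehicle. Both had overlapping groups.

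Gsr (ENSMUSG00000031584), glutathione reductase, which uses NADPH to restore reduced glutathione, was at 22.4, 16.6 and 14.2 CPM with setanaxib and at 16.2, 19.5 and 15.8 CPM with vehicle. Setanaxib replicate 1 was the highest library and setanaxib replicate 3 the lowest. The fitted log2 difference of 0.05 (SE 0.19, 95% interval -0.42 to 0.51, edgeR adjusted p = 0.977) turned to -0.17 without setanaxib replicate 1 and to -0.01 without vehicle replicate 3.

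Srxn1 (ENSMUSG00000032802), sulfiredoxin, which repairs overoxidised peroxiredoxins, spread widest of the tested members, by 3.91-fold over the 6 libraries, with Hmox1 close at 3.89-fold. Srxn1 was at 43.7, 16.6 and 11.2 CPM in setanaxib replicates 1 to 3 and at 16.5, 24.1 and 18.2 CPM in vehicle replicates 1 to 3. Setanaxib replicate 1 was the highest and setanaxib replicate 3 the lowest of all libraries. The fitted log2 difference of 0.28 (SE 0.50, 95% interval -0.93 to 1.49, edgeR adjusted p = 0.930) was -0.51 (SE 0.24) without setanaxib replicate 1 and 0.62 without setanaxib replicate 3. Among 11491 candidate genes, those with the most similar course of log2 CPM over the 6 libraries were Ell2, a transcription elongation factor, Ramp3, a receptor-modifying protein, and Siah2, a ubiquitin ligase. Their root-mean-square differences from Srxn1 were 0.145, 0.148 and 0.169 on the log2 scale, and Ell2 for instance was at 44.3, 17.9 and 11.2 CPM with setanaxib and 17.2, 19.3 and 19.5 CPM with vehicle. Txnrd1, thioredoxin reductase and another NRF2 target, named here after its values were seen, was likewise highest in setanaxib replicate 1 and lowest in setanaxib replicate 3, at 70.4, 41.6 and 32.9 CPM with setanaxib and 38.9, 46.8 and 38.9 CPM with vehicle. The NRF2 targets outside the members did not share 1 order. Prdx1 and Akr1b10 had that of Txnrd1, while Cbr1, Akr1b8 and Gsta3 were lowest in setanaxib replicate 1 and highest in setanaxib replicate 3. Gsta3, for instance, was at 4.94, 6.30 and 12.1 CPM with setanaxib and 7.53, 7.13 and 7.95 CPM with vehicle. The part of the lung, fat and atrial signal of setanaxib replicate 3 in these orders was not tested.

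Nqo1 (ENSMUSG00000003849), the quinone reductase that serves as the usual readout of NRF2, was at 44.3, 49.2 and 19.3 CPM with setanaxib and at 45.0, 45.1 and 41.8 CPM with vehicle. A single library, setanaxib replicate 3, was low, and the other 5 lay between 41.8 and 49.2 CPM. The log2 fold change was -0.22 (SE 0.33, 95% interval -1.03 to 0.58, edgeR adjusted p = 0.908), and without setanaxib replicate 3 it was 0.09 (SE 0.08). The genes closest to it in course were Scn4a, a muscle sodium channel, Scube2, a secreted protein, and Myl3, the ventricular essential myosin light chain, with root-mean-square differences of 0.103, 0.109 and 0.112. Myl3 was at 2596, 2329 and 1108 CPM with setanaxib and at 2348, 2654 and 2324 CPM with vehicle. Set against the sum of the 8 heart muscle markers, Nqo1 was at 1.045, 1.060 and 0.587 CPM per 1000 CPM of markers with setanaxib and at 1.09, 1.08 and 0.944 with vehicle, so it was lowest in setanaxib replicate 3 on this scale too. That sum is led by Myh6, at 16357 CPM in setanaxib replicate 3 and 16260 to 20761 CPM elsewhere. It does not follow every heart muscle gene: Myl2 was at 1584 CPM in setanaxib replicate 3 and 2707 to 3360 CPM elsewhere. The part of that library's tissue makeup in the Nqo1 value was not tested.

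Hmox1 (ENSMUSG00000005413), haem oxygenase, which breaks down haem and is strong in macrophages that clear red cells, was at 25.05, 21.2 and 8.38 CPM with setanaxib and at 11.8, 32.6 and 16.1 CPM with vehicle. It was the only tested member with a larger coefficient of variation with vehicle (47.9% with setanaxib, 54.3% with vehicle), with vehicle replicate 2 the highest and setanaxib replicate 3 the lowest library. The fitted log2 difference of -0.15 (SE 0.51, 95% interval -1.39 to 1.09, edgeR adjusted p = 0.971) turned to 0.20 without setanaxib replicate 3 and to 0.38 without vehicle replicate 2. Red blood cell markers, 7 genes led by the globins, summed to 3812, 4846 and 3301 CPM with setanaxib and to 2765, 5246 and 3644 CPM with vehicle. Vehicle replicate 2 was also their highest library, but their lowest was vehicle replicate 1. Set per 1000 CPM of these markers, Hmox1 was at 6.57, 4.38 and 2.54 CPM with setanaxib and at 4.28, 6.21 and 4.43 CPM with vehicle. On that scale setanaxib replicate 1 was the highest library and the groups overlapped. Per 1000 CPM of the 16 macrophage markers, Hmox1 was at 96.7, 67.4 and 30.0 CPM with setanaxib and at 29.5, 64.2 and 40.7 CPM with vehicle, and the groups overlapped on this scale as well. The part of blood and macrophages in the Hmox1 values was not tested. Closest to it in course were Cpne1 and Ccl9, a chemokine of myeloid cells, with root-mean-square differences of 0.224 and 0.227.

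G6pdx (ENSMUSG00000031400), glucose-6-phosphate dehydrogenase, which makes NADPH at the entry of the pentose phosphate pathway, was the only tested member highest in setanaxib replicate 3. It was at 6.24, 9.99 and 16.0 CPM in setanaxib replicates 1 to 3 and at 11.6, 12.4 and 11.2 CPM in vehicle replicates 1 to 3. Setanaxib replicate 1, where Srxn1, Gclc and Gsr were highest, had the lowest G6pdx, and setanaxib replicate 3, where Srxn1, Nqo1, Hmox1, Gclm and Gsr were lowest, had the highest. Outside the members, the NRF2 targets Cbr1, Akr1b8 and Gsta3 were also lowest in setanaxib replicate 1 and highest in setanaxib replicate 3. The log2 fold change of G6pdx was -0.13 (SE 0.32, 95% interval -0.91 to 0.66, edgeR adjusted p = 0.953). It was 0.14 without setanaxib replicate 1 and -0.53 without setanaxib replicate 3, and in that last comparison both setanaxib libraries lay below all vehicle libraries. Setanaxib replicate 3 is also the library with 124 CPM of summed adipocyte markers, a cell type known for high use of this pathway. It held 777 CPM of lung epithelium markers and 3129 CPM of atrial markers as well. The part of fat, lung or atrial tissue in the G6pdx value was not tested. Ikbkg, which overlaps G6pdx on the opposite strand in the reference, was at 26.9, 24.9 and 24.0 CPM with setanaxib and at 23.3, 23.5 and 23.9 CPM with vehicle. No source used here says whether reads were counted by strand, so reads in the shared stretch cannot be assigned with certainty. This also holds for Nfe2l2, Keap1, Gclm and Gsr, each of which overlaps at least 1 gene with a predicted-gene name (Gm plus digits).

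**Figure D2:**
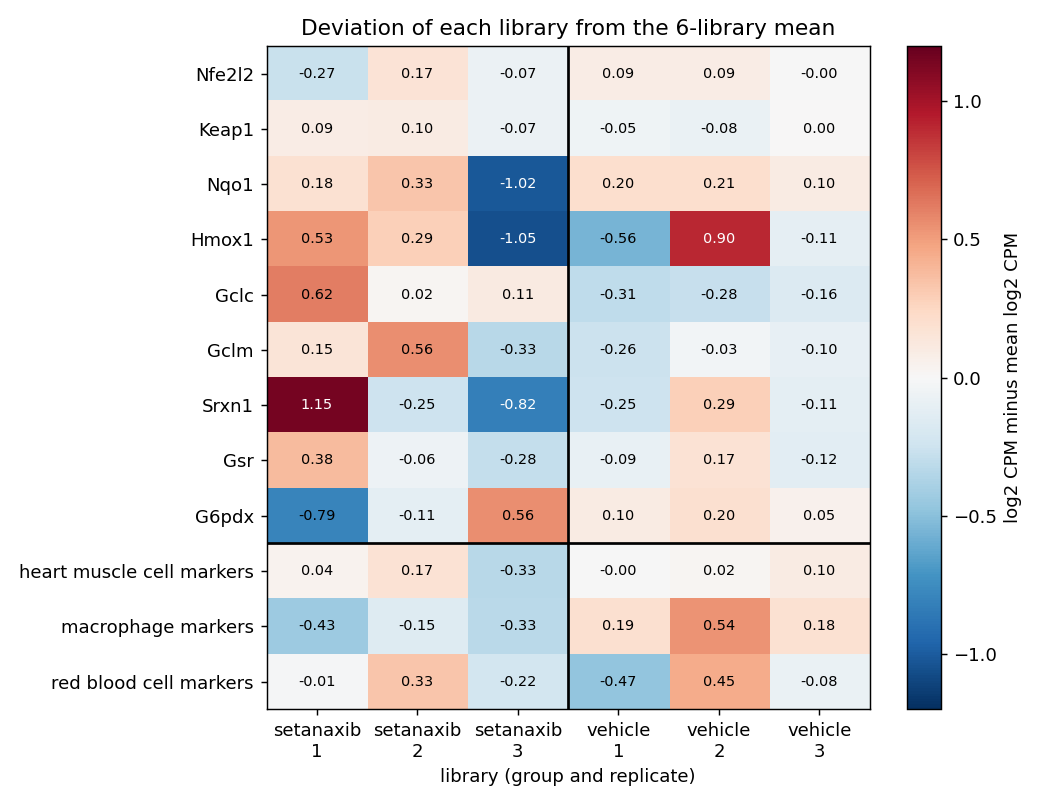
Each cell is the log2 CPM of a member (rows above the line) or of the summed CPM of a marker list (rows below the line) in 1 library, minus its mean over the 6 libraries; red is above and blue below the mean. Nqo1, Hmox1 and Srxn1 are blue in setanaxib replicate 3 (-1.02, -1.05 and -0.82), where G6pdx is red (0.56), and Srxn1 is red in setanaxib replicate 1 (1.15), where G6pdx is blue (-0.79).

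Without setanaxib replicate 3, 7 of 9 members had a positive log2 fold change, as did 10329 of 20880 genes tested. The median was 0.19 over the members and -0.0042 over all genes, and still no member passed the threshold. Gclc, Gclm and Keap1 then lay higher and G6pdx lower with setanaxib in every library, which is 4 of 9 members, and with 2 against 3 libraries groups do not overlap for 33.8% of all genes (a count added after the values were seen). At an unadjusted p under 0.05 by edgeR there were 2 members, Gclc and Gclm, where 13.6% of all genes reached it. Leaving out any other single library instead gave 4 to 6 of 9 members with a positive log2 fold change, with medians of -0.01 to 0.14.

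**Figure D3:**
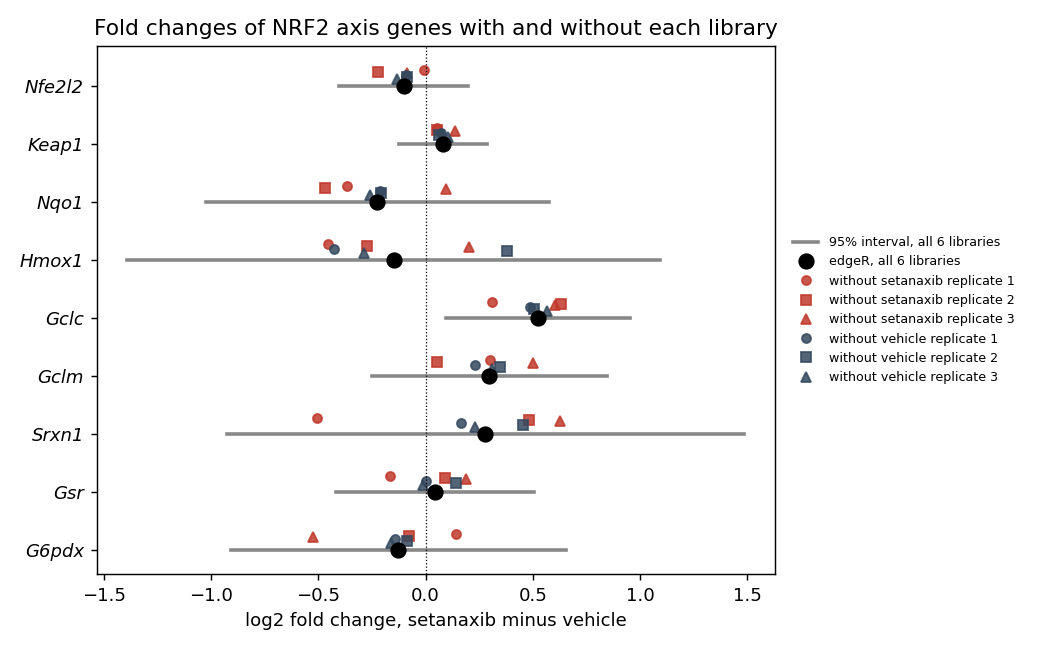
Log2 fold change (setanaxib minus vehicle) of each tested member by edgeR with all 6 libraries (black point) and its 95% interval (grey bar), with the values after leaving out 1 library at a time (small symbols above the bar; red for a setanaxib library, dark for a vehicle library). Only the bar of Gclc stays to the right of 0 (0.09 to 0.95), and Nqo1, Hmox1, Srxn1, Gsr and G6pdx cross 0 when 1 library is left out.

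The wider pathway was no more uniform. Of 22 regulators of NRF2, all tested, 14 had a positive and 8 a negative log2 fold change (median 0.06), and edgeR called none, with none at an unadjusted p under 0.05 and none called by DESeq2. Those of lowest p were Nfe2l3, a relative of NRF2, with a log2 fold change of 0.70 (SE 0.30), Crebbp, a coactivator that acetylates NRF2, with 0.19 (SE 0.08), and Dpp3, which binds KEAP1 in competition with NRF2, with -0.18 (SE 0.09). Their groups did not overlap, nor did those of the deacetylase Hdac3, at 0.10 (SE 0.08), which makes 4 of 22 where 17.6% of all genes tested do not overlap. Sqstm1, which draws KEAP1 into autophagy and is itself an NRF2 target, averaged 237 ± 65.8 CPM with setanaxib and 266 ± 17.2 CPM with vehicle (SD, n = 3 each). Bach1, the repressor that competes for the same elements, averaged 39.4 ± 4.18 CPM with setanaxib and 35.3 ± 1.18 CPM with vehicle.

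Of 24 genes of glutathione synthesis and turnover, 20 were tested, 12 with a positive and 8 with a negative log2 fold change (median 0.08), and none was called by edgeR or DESeq2. At an unadjusted p under 0.05 there were 2 of the 20, where 8.46% of all genes reached it: Gclc and Abcc1, an exporter of glutathione and its conjugates, at 42.4 ± 2.29 CPM with setanaxib and 50.05 ± 3.73 CPM with vehicle (SD, n = 3 each; log2 fold change -0.24, SE 0.09, edgeR adjusted p = 0.566). Cth, which makes cysteine from cystathionine, had a log2 fold change of 1.10 (SE 0.47) at under 2 CPM in every library, and Oplah, which recycles 5-oxoproline, had 0.20 (SE 0.09). The cysteine enzyme Cbs and the gamma-glutamyltransferases Ggt1 and Ggt6 were listed at 0 in all libraries, as was Slc7a11.

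Of 22 genes of NADPH supply, all tested, 15 had a positive and 7 a negative log2 fold change (median 0.03), and none was called by edgeR or DESeq2. At an unadjusted p under 0.05 there were 2 of the 22, against 8.46% of all genes. Aldh1l2, a mitochondrial folate enzyme that makes NADPH, was at 5.02, 5.23 and 8.99 CPM with setanaxib and at 4.04, 3.09 and 3.31 CPM with vehicle (log2 fold change 0.88, SE 0.27, edgeR adjusted p = 0.464). Nadk2, which makes NADP inside mitochondria, was at 38.4, 35.6 and 28.9 CPM with setanaxib and at 27.6, 27.4 and 26.1 CPM with vehicle (log2 fold change 0.34, SE 0.12, edgeR adjusted p = 0.532). Both lay higher in all setanaxib libraries, as did 8.11% of all genes tested. Rpia, of the pentose phosphate pathway, had -0.36 (SE 0.20). Pgd, the pathway's second NADPH-making step after G6pdx, averaged 20.0 ± 0.639 CPM with setanaxib and 21.1 ± 0.869 CPM with vehicle (SD, n = 3 each) and did not follow the swings of G6pdx. Tkt and H6pd of the same list shared the order of G6pdx, lowest in setanaxib replicate 1 and highest in setanaxib replicate 3. Tkt was at 19.7, 23.7 and 73.6 CPM with setanaxib and at 24.8, 26.2 and 23.9 CPM with vehicle. The part of the lung, fat and atrial signal of setanaxib replicate 3 in the Tkt and H6pd values was not tested. Idh2 and Me1 were instead lowest in setanaxib replicate 3. Nnt, the mitochondrial transhydrogenase, chosen after its values were seen, was at 265, 463 and 72.6 CPM with setanaxib and at 195, 220 and 343 CPM with vehicle.

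Of 37 other NRF2 target genes, 33 were tested, 22 with a positive and 11 with a negative log2 fold change (median 0.06), and none was called by edgeR or DESeq2. The only one of the 33 at an unadjusted p under 0.05, which 8.46% of all genes reached, was Ugt1a6a, a glucuronosyltransferase, at 0.991, 0.624 and 4.37 CPM with setanaxib and at 0.437, 0.534 and 0.595 CPM with vehicle. The fitted difference of 1.93 on the log2 scale (SE 0.75, edgeR adjusted p = 0.564) came with setanaxib replicate 3 far above the other libraries. That library held 777 CPM of lung epithelium markers, against at most 24.4 CPM in any other library. The part of lung tissue in the Ugt1a6a value was not tested. Genes of this cluster also share exons, which leaves the value uncertain. The glutathione transferases Gstm1 and Gstp1 were at 0.23 (SE 0.11) and 0.18 (SE 0.09) in log2 fold change, and Gstp1 and its close copy Gstp2 can share reads.

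Of 19 genes of haem and iron handling, 18 were tested, 8 with a positive and 10 with a negative log2 fold change (median -0.03), and none was called by edgeR or DESeq2, with 1 at an unadjusted p under 0.05 (8.46% of all genes). This was Flvcr1, a haem exporter, at 7.36, 5.72 and 5.29 CPM with setanaxib and at 4.44, 4.25 and 4.66 CPM with vehicle, higher without overlap as for 8.11% of all genes (log2 fold change 0.46, SE 0.16, edgeR adjusted p = 0.532). Pcbp1, an iron chaperone, had -0.23 (SE 0.11) and Cp, the ferroxidase ceruloplasmin, 0.29 (SE 0.15). Of 20 targets of ATF4, a stress factor that also drives Slc7a11, all were tested, 11 had a positive and 9 a negative log2 fold change (median 0.04), and none was called by edgeR or DESeq2, with 1 at an unadjusted p under 0.05 (again 8.46% of all genes). That one was Slc7a1, a carrier of arginine and other cationic amino acids, at 93.4, 131 and 87.0 CPM with setanaxib and at 66.7, 73.0 and 69.0 CPM with vehicle. All setanaxib libraries were higher, which held for 8.11% of all genes (log2 fold change 0.58, SE 0.17, unadjusted p = 0.0124, edgeR adjusted p = 0.451). Cth stood next, followed by Aldh18a1, which makes a proline precursor, at -0.54 (SE 0.23).

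**Figure D4:**
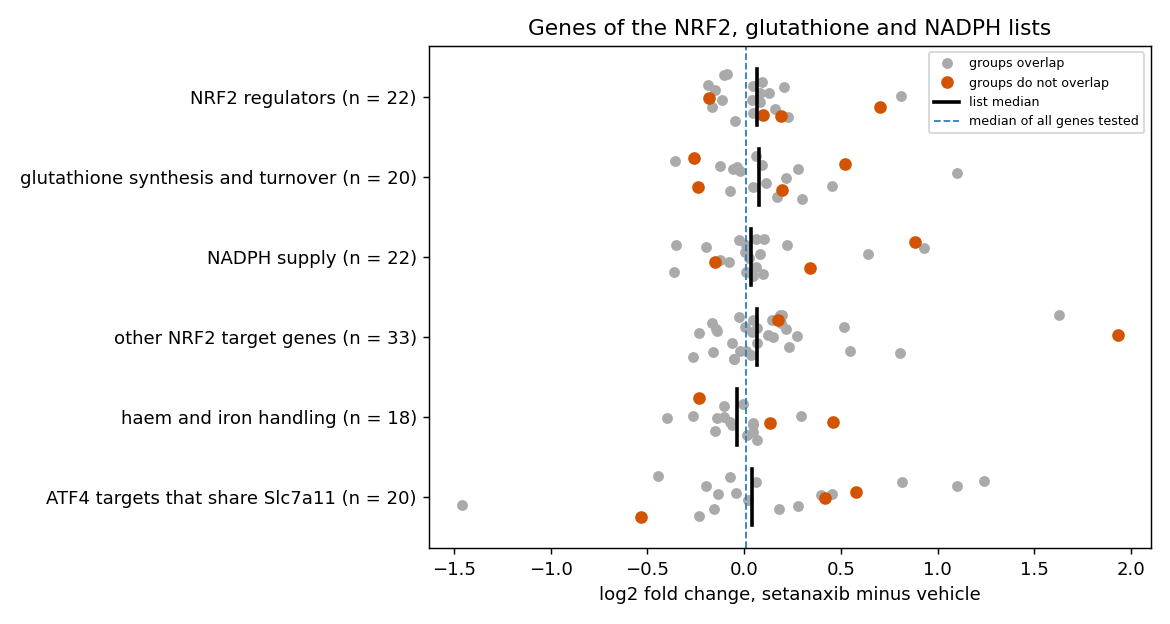
Log2 fold change (setanaxib minus vehicle, horizontal axis) of each tested gene in 6 lists around NRF2; orange points are genes whose setanaxib and vehicle libraries do not overlap, black bars are list medians and the dashed line is the median of all genes tested (0.01). The list medians lie between -0.03 and 0.08, close to that line.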

How the data were processed

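The authors deposited 1 table of estimated counts per gene for 50385 genes in 6 heart libraries. Its values are whole numbers, not scaled between libraries, and needed no rounding; the planned design had assumed a count table and its count test was kept. The build GRCm39 and the tools STAR 2.5.4b, FastQC 0.11.9, DESeq2 1.42.0 and featureCounts 2.0.1 are listed without roles, per the submitters' processing notes. Per the file headers, row and column names look like output of StringTie's prepDE script, which those notes leave out. Strand setting and RNA selection: not given in the sources used here.

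In R 4.3.3, edgeR 4.0.16 kept 20472 genes with filterByExpr (minimum 10 counts), scaled by TMM and tested setanaxib minus vehicle by quasi-likelihood, two-sided, with Benjamini-Hochberg adjustment over all genes (threshold 0.05); the fit was tested on simulated data. Standard errors come from its F statistic, and log2 CPM used a prior count of 2. Alternatives were RLE and upper-quartile scaling, other filters, dropping mitochondrial genes, DESeq2, limma-voom 3.58.1 and leaving out each library. Per-length levels use GENCODE M21 exons. Named genes were all members, the 3 of lowest p per list, and the 3 closest in course to the 3 members of widest range; 1 of these is not reported here, and others are marked or given for their role. Members and lists were chosen with earlier results of these data known.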

Additional observations from a re-analysis of the deposited data

How the results depend on the processing

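Of all genes, edgeR called 1, against 494 by DESeq2, 0 by limma-voom and 0 to 1 with each library left out (0 without vehicle replicate 1, 2 or 3). For the members and for the genes of the 6 lists the count stayed at 0 under every alternative run. No scaling, filter or tool changed the sign of a member's log2 fold change, but limma-voom gave 0.04 for Srxn1, -0.23 for G6pdx and -0.34 for Nqo1, where edgeR gave 0.28, -0.13 and -0.22, and the median of all genes lay between -0.013 and 0.039 under them. Leaving out 1 library gave log2 fold changes of -0.47 to 0.094 for Nqo1, -0.45 to 0.38 for Hmox1, -0.51 to 0.62 for Srxn1, -0.17 to 0.19 for Gsr and -0.53 to 0.14 for G6pdx, which thus changed sign. Those of Gclc ran from 0.31 to 0.63, of Gclm from 0.05 to 0.50, of Keap1 from 0.05 to 0.14 and of Nfe2l2 from -0.22 to -0.01. The lowest adjusted p of any member was 0.212, for Gclc by DESeq2. Depth did not limit the tested members. With 3 libraries per group, the 95% intervals of Nqo1, Hmox1 and Srxn1 span changes of more than 1 log2 unit in at least 1 direction. No paired analysis was possible because the labels give no replicate numbers that the groups share.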
